A study of Mus musculus with 96 samples.

Results

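Vitamin C transport and synthesis was read from 4 genes of the 56748 in the count table: Rgn and Gulo, which act in the synthesis of ascorbate, and Slc23a1 and Slc23a2, which carry ascorbate into cells. The 4 genes were selected by name, and the list was drawn up from measured values of these same libraries, the levels under both diets in 3 tissues. Their levels and their differences between the diets are therefore given as a description, without a test. Tests were run for other genes of ascorbate metabolism, 30 of which were matched by name and 22 to 27 of which passed the filter on low counts in each comparison.

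The data are RNA-seq read counts of liver, skeletal muscle and cerebral cortex from mice fed ad libitum (AL) or kept on intermittent fasting (IF). Male C57BL/6 mice on normal chow went without food for 16 h of each day in the IF group, from 6 weeks of age and for 4 months, and all were perfused with cold saline and sampled in the morning, around the end of the daily fast. The labels number the male mice 1 to 8 (AL) and 9 to 16 (IF). They also list female mice, 25 to 32 (AL) and 33 to 40 (IF), whose strain, age, time on the diet and fasting hours are not given in the sources used here. Each of the 12 groups of tissue, sex and diet had 8 libraries, except AL male cortex with 7. The sexes were analysed apart, and sex cannot be told apart from anything else that differed between the 2 sets of mice. Library totals ran from 26097314 to 49838004 counts, with a median of 36132954. Levels are given as CPM, the count scaled by the library total, with mean ± SD over mice. Log2 fold changes were fitted with TMM scaling of the libraries, so they can differ from the ratio of the CPM means beside them.

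The library labelled cortex of AL mouse 1 went against its male label. It held 213 CPM of the female-linked RNA Xist and no count of the Y-linked genes Ddx3y, Uty, Kdm5d and Eif2s3y. In the other 47 male libraries Xist reached at most 0.612 CPM and the Y-linked genes held at least 2166 counts. All 48 female libraries had at least 36.8 CPM of Xist and at most 3 Y-linked counts. The library labelled AL mouse 1 was closer to the cortex library of IF mouse 40 than any other pair of libraries of a tissue was to each other, with a chi-square of 4.53 per gene against 8.49 for the next pair. That value is above 1, the value of sampling noise, so they were not treated as 1 library. The library labelled AL mouse 1 was left out, and the cortex results are also given with it.

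Markers of each tissue matched the labels. Summed over Alb, Apoa1, Ttr, Cyp2e1 and Serpina1c, hepatocyte markers averaged 61807 CPM in AL male liver. Fibre markers (Acta1, Ckm, Mylpf, Tnnt3, Myh4) averaged 133258 CPM in AL male muscle, and neuronal markers (Snap25, Syt1, Slc17a7, Gad1, Stmn2) averaged 6013 CPM in AL male cortex.

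As background, mice make ascorbate in the liver from glucose, by way of UDP-glucuronate, glucuronate and gulonate. Regucalcin, the product of Rgn, closes gulonate into its lactone, and the oxidase encoded by Gulo, which humans have lost, turns the lactone into ascorbate. Sodium-coupled carriers then move ascorbate into cells: that of Slc23a1 mainly in epithelia and hepatocytes, and that of Slc23a2 in brain and most other tissues, while glucose transporters take up the oxidised form, dehydroascorbate.

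The 4 genes lie on 4 chromosomes of GRCm39. Rgn is on chromosome X (20416026 to 20428328, plus strand) and Gulo on chromosome 14 (66224235 to 66246656, minus strand). Slc23a1 lies on chromosome 18 (35747657 to 35760297, minus strand) and Slc23a2 on chromosome 2 (131894416 to 131987028, minus strand). No annotated gene overlaps Rgn. Each of the others is overlapped by a gene of the opposite strand only. The paper describes a directional library kit. Whether the reads were counted by strand is not given in the sources used here, so counts from the overlaps may be affected. For Slc23a1 the overlapping coding gene is Paip2, which averaged 57.3 ± 7.48 CPM in AL and 75.8 ± 8.34 CPM in IF male liver (SD, n = 8 each).

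Both synthesis genes were liver genes in these tissues. Liver libraries held 18428 to 58724 counts of Rgn and 6216 to 18151 counts of Gulo. In muscle and cortex no library held more than 18 counts of Rgn or more than 20 of Gulo. Rgn had no count in any of the 8 IF male muscle libraries, where 3 counts would be 0.0866 CPM on average. Slc23a1 showed the same tissue pattern at a lower level, with 320 to 4070 counts in liver libraries and at most 22 in any muscle or cortex library. Slc23a2 was the one member counted well in all 3 tissues. Cortex came first, at 6.84 times the liver CPM in AL males and 4.0 times in AL females, and muscle came last. All 4 members passed the filter on low counts in liver in both sexes. In muscle only Slc23a2 passed it. Slc23a2 and Slc23a1 passed it in male cortex, and Slc23a2 alone in female cortex.

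**Figure D1:**
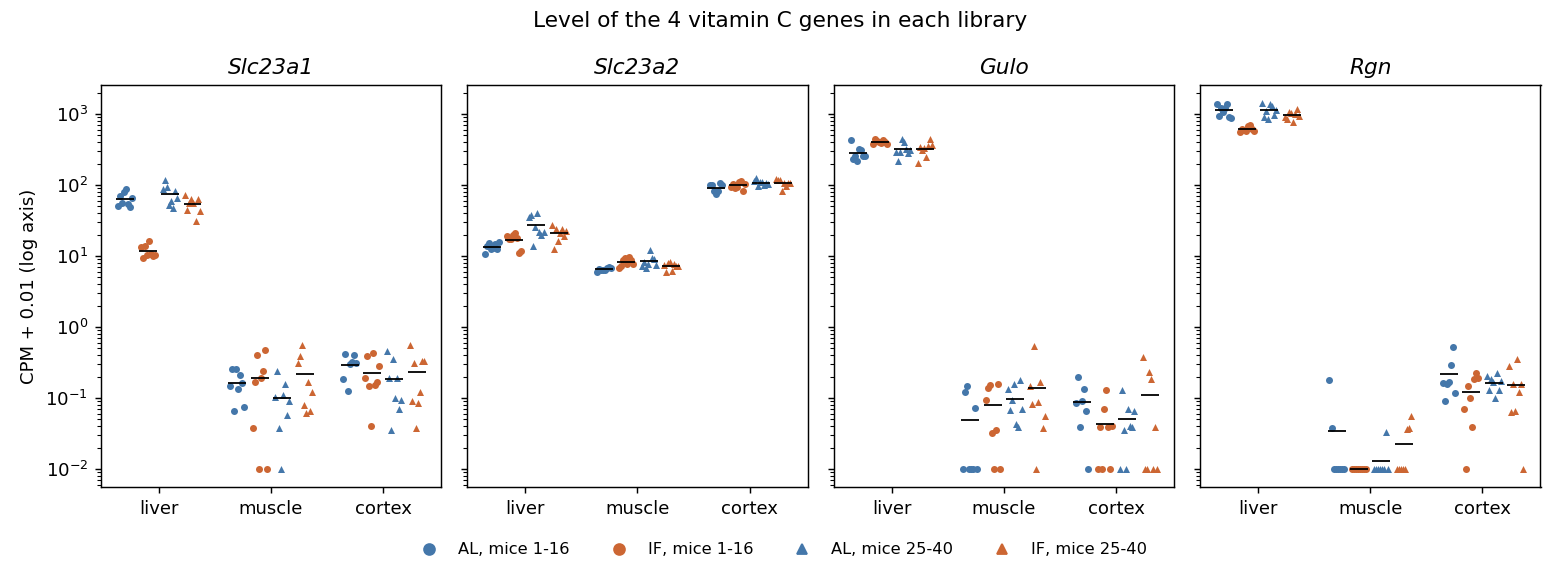
Level of Slc23a1, Slc23a2, Gulo and Rgn in each of the 95 libraries, as CPM + 0.01 on a log axis, by tissue, with AL in blue, IF in orange, male mice as circles and female mice as triangles, and black lines for group means. Gulo, Rgn and Slc23a1 were high in liver alone, and Slc23a2 was highest in cortex.

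Per kilobase of gene length, the scale on which genes can be compared, AL male liver held 701 ± 129 CPM per kb of Rgn, 126 ± 30.3 of Gulo, 19.9 ± 4.41 of Slc23a1 and 1.7 ± 0.212 of Slc23a2 (SD, n = 8). By this measure Rgn ranked 75 among all genes, Gulo 374, Slc23a1 1752 and Slc23a2 8752. The same order held in AL female liver, at ranks 71, 374, 1695 and 6674. In AL male cortex Slc23a2 reached 11.6 ± 1.54 CPM per kb (n = 7), and the other 3 members reached at most 0.127 CPM per kb on average.

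Rgn was lower in IF than in AL liver of male mice. It ranged from 891 to 1398 CPM with a median of 1145 CPM in the 8 AL males, and from 555 to 706 CPM with a median of 603 CPM in the 8 IF males. The groups did not overlap, and every IF male lay below every AL male. The means were 1126 ± 207 and 616 ± 52.3 CPM, a ratio of 1.83, and the fitted log2 fold change was -0.97 ± 0.12 (SE). In a bulk sample, fewer cells of a type and less RNA per cell cannot be told apart. In female liver Rgn ranged from 861 to 1424 CPM (median 1138 CPM) in AL and from 785 to 1191 CPM (median 979 CPM) in IF, and 2 of 8 IF females lay below all AL females. Here the log2 fold change was -0.18 ± 0.14. The AL males and AL females overlapped at nearly the same mean, whereas the IF males all lay below the IF females, whose mean was 1.58 times higher.

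Gulo moved the other way in male liver. AL males ranged from 218 to 430 CPM with a median of 259 CPM, and IF males from 374 to 453 CPM with a median of 407 CPM. A single AL library, that of mouse 1 at 430 CPM, reached into the IF range. The next highest AL male had 320 CPM, below all 8 IF males. This separation depended on the scaling: with TMM, AL mouse 6 at 351 CPM also lay above IF mouse 9 at 332.8 CPM. The means were 285 ± 68.6 and 408 ± 25.7 CPM, and the log2 fold change was 0.42 ± 0.13 (SE), or 0.53 without AL mouse 1. Female Gulo ranged from 221 to 450 CPM (median 304 CPM) in AL and from 207 to 440 CPM (median 334 CPM) in IF, overlapping almost fully, with a log2 fold change of 0.07 ± 0.16.

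Per kilobase, the ratio of Rgn to Gulo was 5.65 ± 0.854 in AL and 2.13 ± 0.166 in IF male liver, with no overlap, since the lowest AL ratio was 4.58 and the highest IF ratio 2.43. In female liver the ratio was 5.15 ± 1.17 in AL and 4.35 ± 0.892 in IF, with overlap. Rgn stayed above Gulo per kilobase in all 32 liver libraries.

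Of the 4 members, Slc23a1 had the largest difference between the diets in male liver. Its level ranged from 48.6 to 87.7 CPM with a median of 61.3 CPM in AL males and from 9.46 to 16.2 CPM with a median of 10.5 CPM in IF males. All 8 IF males lay far below the lowest AL male. The means, 64.4 ± 14.3 and 11.8 ± 2.38 CPM, gave a ratio of 5.47, and the log2 fold change was -2.54 ± 0.13 (SE). Female Slc23a1 ranged from 47.4 to 117 CPM (median 74.6 CPM) in AL and from 31.2 to 72.4 CPM (median 55.9 CPM) in IF. The female groups overlapped, with 3 of 8 IF females below all AL females, and the log2 fold change was -0.45 ± 0.19. As for Rgn, AL livers of both sexes overlapped, while every IF male lay below every IF female, whose mean was 4.58 times higher.

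Slc23a2 was low in liver. AL males ranged from 10.7 to 15.7 CPM (median 13.4 CPM), and IF males from 11.2 to 21.2 CPM (median 17.8 CPM). 6 of 8 IF males lay above all AL males, and IF mice 15 and 16, at 11.2 and 11.8 CPM, lay within the AL range. The log2 fold change was 0.23 ± 0.14 (SE) in males. In females the mean was 27.2 ± 9.74 CPM in AL and 20.9 ± 4.78 CPM in IF, with a log2 fold change of -0.33 ± 0.20 and overlapping groups. Per kilobase, Slc23a1 exceeded Slc23a2 by 11.8 ± 2.92 times in AL and 1.74 ± 0.361 times in IF male liver, and by 7.77 ± 4.2 and 6.65 ± 2.16 times in AL and IF female liver.

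As a description, the log2 fold change in female minus that in male liver was 2.13 ± 0.24 (SE) for Slc23a1, 0.82 ± 0.19 for Rgn, -0.32 ± 0.21 for Gulo and -0.53 ± 0.25 for Slc23a2.

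Of the 4 members, 2 thus did not overlap between the diets in male liver, and both were lower in IF. Among the 16204 genes tested there, 23.5% were higher and 21.1% lower in IF at an adjusted p under 0.05. In female liver no member was without overlap, and 0% of 15938 genes were called higher and 0% lower. Since the members were chosen from this contrast, nothing was read from these shares.

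**Figure D2:**
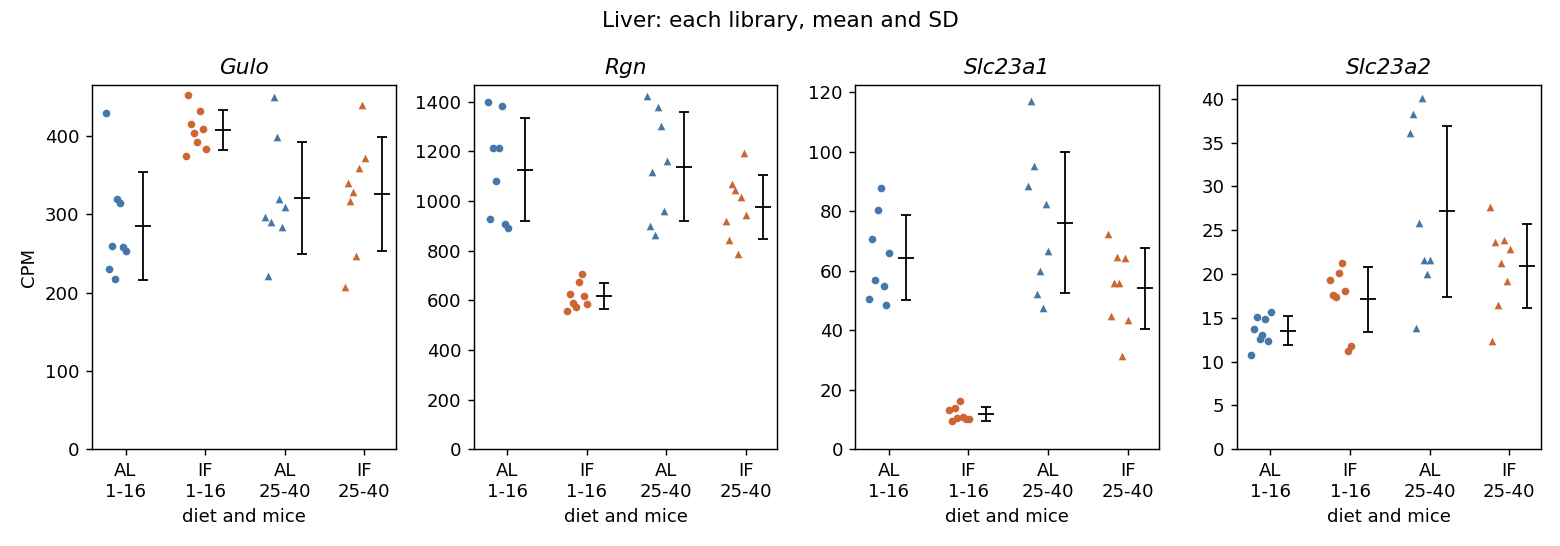
CPM of Gulo, Rgn, Slc23a1 and Slc23a2 in each liver library (linear axes from 0), with the mean and SD of each group in black, for AL (blue) and IF (orange) male mice 1-16 (circles) and female mice 25-40 (triangles). Rgn and Slc23a1 in IF males lie below all other groups' means, without overlap with AL males.

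Markers of other cells also differed between the diets in male liver. The erythroid sum (Hba-a1, Hbb-bs, Hbb-bt, Alas2; most abundant Hba-a1) averaged 514 ± 164 CPM in AL and 2413 ± 2061 CPM in IF, and 5 of 8 IF males lay above all AL males. The endothelial sum (Pecam1, Cldn5, Kdr; most abundant Kdr) averaged 38.2 ± 4.93 and 64.9 ± 11.1 CPM, without overlap. The bile duct sum (Krt19, Krt7, Epcam; most abundant Krt19) averaged 6.68 ± 2.53 and 18.9 ± 7.88 CPM. All genes of these 3 lists had counts in both groups, and their part in the results of the members and of the other pathway genes in male liver was not tested. The hepatocyte sum averaged 61807 ± 9123 CPM in AL and 59380 ± 7134 CPM in IF males.

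Muscle held one member above the filter. Slc23a2 ranged from 5.96 to 7.09 CPM (median 6.53 CPM) in AL males and from 6.81 to 9.59 CPM (median 8.19 CPM) in IF males. 7 of 8 IF males lay above all AL males, IF mouse 9 being the exception. With TMM scaling, IF mouse 10 at 6.814 CPM also lay below the highest AL male, mouse 6 at 7.145 CPM. The log2 fold change was 0.26 ± 0.08 (SE) in males. Female means were 8.52 ± 1.71 CPM in AL and 7.28 ± 0.822 CPM in IF, with a log2 fold change of -0.15 ± 0.11 and overlapping groups. Without AL mouse 29 it was -0.07. Adipocyte markers (Adipoq, Plin1, Cidec; most abundant Cidec) summed to 44 ± 38.5 CPM in AL and 239 ± 196 CPM in IF male muscle, all 3 with counts in both groups. The hepatocyte list, nearly all of it Cyp2e1, summed to 6.22 ± 3.93 CPM in AL and 96.7 ± 57.1 CPM in IF male muscle, without overlap. In female muscle the endothelial sum averaged 87.7 CPM in AL and 62.3 CPM in IF, with 7 of 8 IF females below all AL females. The part of these cells in the Slc23a2 levels was not tested.

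Cortex levels of Slc23a2 were close in all 4 groups. AL males ranged from 74.4 to 106 CPM (median 99.6 CPM, n = 7) and IF males from 83.3 to 113 CPM (median 99.3 CPM). AL females ranged from 98.2 to 124 CPM (median 107 CPM) and IF females from 82.3 to 123 CPM (median 108 CPM). All 4 groups overlapped, and the log2 fold change was 0.11 ± 0.08 (SE) in males and -0.02 ± 0.06 in females. The left-out library had 106 CPM, and with it the male log2 fold change was 0.08. Choroid plexus markers (Kl, Folr1, Kcnj13, Otx2) summed to between 32 and 83.1 CPM in AL mouse 4 and IF mice 11, 14, 34 and 36, where Slc23a2 was at 83.8, 91.4, 113, 117 and 82.3 CPM, and to at most 11.8 CPM in the other cortex libraries used. The part of these cells in the Slc23a2 levels was not tested.

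Slc23a1, the other member tested in male cortex, held 4 to 15 counts per library in AL and 1 to 14 in IF, and its log2 fold change was -0.38 ± 0.40 (-0.40 with the left-out library). Of the 15 refits that left out 1 library, 8 gave a value for it. These ran from -0.51 without AL mouse 4 to -0.22 without IF mouse 12. No member's groups were without overlap in muscle or cortex. The shares of genes called higher and lower in IF were 11.5% and 11.6% in male muscle, 0.00653% and 0% in female muscle, 3.79% and 3.43% in male cortex, and 0% and 0.0109% in female cortex.

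Ranked by group mean CPM, the 12 groups gave a few separate steps. For Slc23a2 the 4 cortex groups came first, the 4 liver groups next and the 4 muscle groups last, and means differed from the next by more than the larger SD only at the steps between tissues. Slc23a1 and Rgn both began with AL female, AL male and IF female liver, neighbours within their spread, followed by IF male liver as a step of its own. The muscle and cortex groups came after it, with a further step from cortex to muscle for Rgn. For Gulo, IF male liver stood first as a step of its own, followed by both female liver groups and AL male liver, which did not differ beyond their spread.

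The genes most like each member were those with the smallest root mean square difference of centred mean log2 CPM over the 12 groups, among 18376 genes. For Slc23a1 these were Gm4756 (difference 0.178), Gm32063 (0.272) and Mup-ps13 (0.277). Gm4756 averaged 56 and 12.4 CPM in AL and IF male liver and 62.5 and 48.4 CPM in AL and IF female liver. For Slc23a2 they were Hlf (0.143), Flywch2 (0.155) and Osbpl1a (0.17), and for Gulo they were Glyat (0.129), Slc17a2 (0.132) and Saa4 (0.137). For Rgn they were Ftcd (0.14), BC024386 (0.182) and Cyp2d13 (0.242). BC024386, a long noncoding RNA, averaged 1055 and 498 CPM in AL and IF male liver and 1208 and 1030 CPM in AL and IF female liver.

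The other genes of ascorbate metabolism were 31 listed genes, of which 30 were matched by name. In male liver 24 of them were tested with edgeR, and 7 were higher and 6 lower in IF at an adjusted p under 0.05 over all genes. The list's median log2 fold change was 0.19, against 0.06 over all 16204 genes, of which 23.5% were called higher and 21.1% lower. With library totals alone as the scaling, 9 list genes were higher and 4 lower, and of all genes 4402 were higher and 2694 lower, against 3815 and 3419 with TMM.

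On the route from glucose to gulonate, Ugdh, which makes UDP-glucuronate, fell from 154 ± 31.7 to 95.1 ± 10 CPM, a log2 fold change of -0.78 ± 0.12 (SE; edgeR adjusted p = 1.51e-05), and all 8 IF males lay below the AL males. Akr1a1, whose product reduces glucuronate to gulonate, rose from 235 ± 47.5 to 379 ± 50.5 CPM, by 0.60 ± 0.13 (edgeR adjusted p = 0.000806), and all 8 IF males lay above the AL males. Ugp2 did not pass. Among genes that reduce oxidised ascorbate, Cyb5r3, a reductase that passes electrons from NADH, fell from 656 ± 101 to 477 ± 76.5 CPM, by 0.55 ± 0.13 on the log2 scale (edgeR adjusted p = 0.00134), with 6 of 8 IF males below the AL range. Txnrd1, thioredoxin reductase, fell too, with 6 of 8 IF males below the AL range.

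Enzymes that use ascorbate as a cofactor went in both directions in male liver. The collagen hydroxylase P4ha2 went from 6.07 ± 1.4 to 13.2 ± 2.31 CPM, by 1.03 ± 0.16 (edgeR adjusted p = 1.09e-05), higher in all 8 IF males than in any AL male. Hpd, a dioxygenase of tyrosine breakdown, rose from 2005 ± 220 to 3763 ± 585 CPM, by 0.80 ± 0.12 (edgeR adjusted p = 4.23e-06), again without overlap, and the amidating monooxygenase Pam rose as well. Tet2 and Tet3, which oxidise methylcytosine, fell, with 6 and 5 of 8 IF males below the AL range. With library totals alone as the scaling, Tet3 no longer passed. Cryl1, which takes gulonate into another pathway, rose. The collagen hydroxylase P4ha1 and the dehydroascorbate carrier Slc2a3 were also called higher. Slc2a2, another such carrier, was called lower, with an adjusted p close to the threshold.

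None of 25 tested list genes passed the threshold in female liver with edgeR. At an unadjusted p under 0.05, 3 passed with edgeR and 3 with DESeq2, and none passed DESeq2's adjusted threshold. Over all genes edgeR called 0, with 919 at an unadjusted p under 0.05, and DESeq2 called 4. The list's median log2 fold change was 0.11, against -0.01 over all genes. A call in one sex and not in the other is no difference, so the difference of the IF response, female minus male, was tested as an interaction over 32 liver libraries, and 23.7% of 17658 genes passed. Of 27 list genes tested, 6 passed. The female response was the higher one for Ugdh (0.74 ± 0.20, SE), Txnrd1 (0.53 ± 0.14), Cyb5r3 (0.88 ± 0.20), Tet2 (0.85 ± 0.31) and Tet3 (0.44 ± 0.17), and the lower one for Hpd (-0.61 ± 0.17). Cyb5r3 had the smallest adjusted p of these, 0.000979 with edgeR. Without AL mouse 2 and IF mouse 10, Tet3 no longer passed, and the list count was again 6.

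In muscle the list counts were smaller. Of 22 genes tested in males, 2 were higher and 3 lower in IF, beside 11.5% and 11.6% of 15025 genes, with a median log2 fold change of 0.00 against 0.01. With library totals alone, 4 list genes were higher and 3 lower, and 70.4% of all genes called were higher, against 49.8% with the TMM scaling. P4ha2, which rose in liver, fell in muscle from 34.2 ± 3.47 to 25.6 ± 0.599 CPM, by 0.49 ± 0.06 on the log2 scale (edgeR adjusted p = 4.33e-06), with all 8 IF males below the AL males. The collagen lysyl hydroxylase Plod1 fell by 0.33 ± 0.07 (edgeR adjusted p = 0.00201), with 5 of 8 IF males below the AL range, and Slc2a4, the insulin-regulated glucose transporter, fell by 0.28 ± 0.06 (edgeR adjusted p = 0.00147), with 6 of 8 below. Txnrd1 rose by 0.30 ± 0.07 (edgeR adjusted p = 0.00307), with 6 of 8 IF males above the AL range. Ugp2, which makes UDP-glucose, rose by 0.25 ± 0.08 (edgeR adjusted p = 0.0344), with 5 of 8 above, and this call was lost when any one of AL mice 1, 2, 3 and 4 or IF mice 11, 12 and 15 was left out. With a block on the replicate number, 4 list genes passed, 1 higher and 3 lower. The adipocyte and hepatocyte list sums given above were also higher in IF male muscle, and the part of these cells in the pathway results was not tested.

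Female muscle had no list gene past the threshold of 23 tested, and none at an unadjusted p under 0.05 with edgeR or DESeq2. Over all genes edgeR called 1, with 1644 at an unadjusted p under 0.05, and DESeq2 called 82. The list's median was 0.01, against -0.02 over all 15308 genes. The interaction of sex and diet passed for 14.2% of 16346 genes and for 3 of 24 list genes, those that fell in males: P4ha2 (0.58 ± 0.10, SE, edgeR adjusted p = 0.000156), Slc2a4 (0.42 ± 0.10) and Plod1 (0.31 ± 0.10). Plod1 did not pass without IF mouse 11, an alternative chosen after the data were seen, under which the list count was again 3.

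Male cortex had 4 of 27 list genes past the threshold, 2 higher and 2 lower in IF, beside 3.79% and 3.43% of 18462 genes, with a median log2 fold change of 0.03 against 0.00 over all genes. Slc2a1, the glucose and dehydroascorbate carrier of the blood-brain barrier, rose from 92.1 ± 9.12 to 142 ± 25.7 CPM, by 0.64 ± 0.10 (edgeR adjusted p = 0.00193), with 7 of 8 IF males above the AL range. Ugp2 fell from 68.8 ± 2.01 to 56.9 ± 3.48 CPM, by 0.26 ± 0.05 (edgeR adjusted p = 0.00527), and all 8 IF males lay below the AL males. Plod2 fell by 0.52 ± 0.13 (edgeR adjusted p = 0.0237), with 7 of 8 IF males below the AL range, and Cyb5r3 rose by 0.21 ± 0.06 (edgeR adjusted p = 0.0414), with 7 of 8 above. With the left-out library added, 1 of the 4 passed, Slc2a1. With a block on the replicate number, 2 list genes passed, 1 higher and 1 lower. Plod2 and Cyb5r3 also failed with no filter on low counts. Plod2 no longer passed without AL mouse 3 or AL mouse 5, and Cyb5r3 passed in refits without AL mouse 6, IF mouse 12 or IF mouse 16 but in none of the other 12 that left out 1 library. The endothelial sum (most abundant Cldn5) was 131 ± 12.1 CPM in AL and 99.3 ± 15.2 CPM in IF male cortex, all 3 genes with counts in both groups. The values of 1 further marker list that moved in male cortex are not given. The part of these cells in the results was not tested.

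None of 26 list genes passed in female cortex with edgeR, and 6 had an unadjusted p under 0.05. DESeq2 gave 0 adjusted and 6 unadjusted. Over all genes edgeR called 2, with 2069 at an unadjusted p under 0.05, and DESeq2 called 61. Without AL mouse 26, edgeR called 1 list gene and 254 of all genes. The list's median was 0.07, against 0.00 over all 18403 genes. The interaction passed for 2.03% of 19547 genes and for 2 of 27 list genes, Slc2a1 (-0.46 ± 0.12, SE, edgeR adjusted p = 0.0437) and Ugp2 (0.23 ± 0.06, edgeR adjusted p = 0.0418). Neither passed without AL mouse 2 and IF mouse 10, or with the left-out library added, the latter an alternative chosen after the data were seen.

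**Figure D3:**
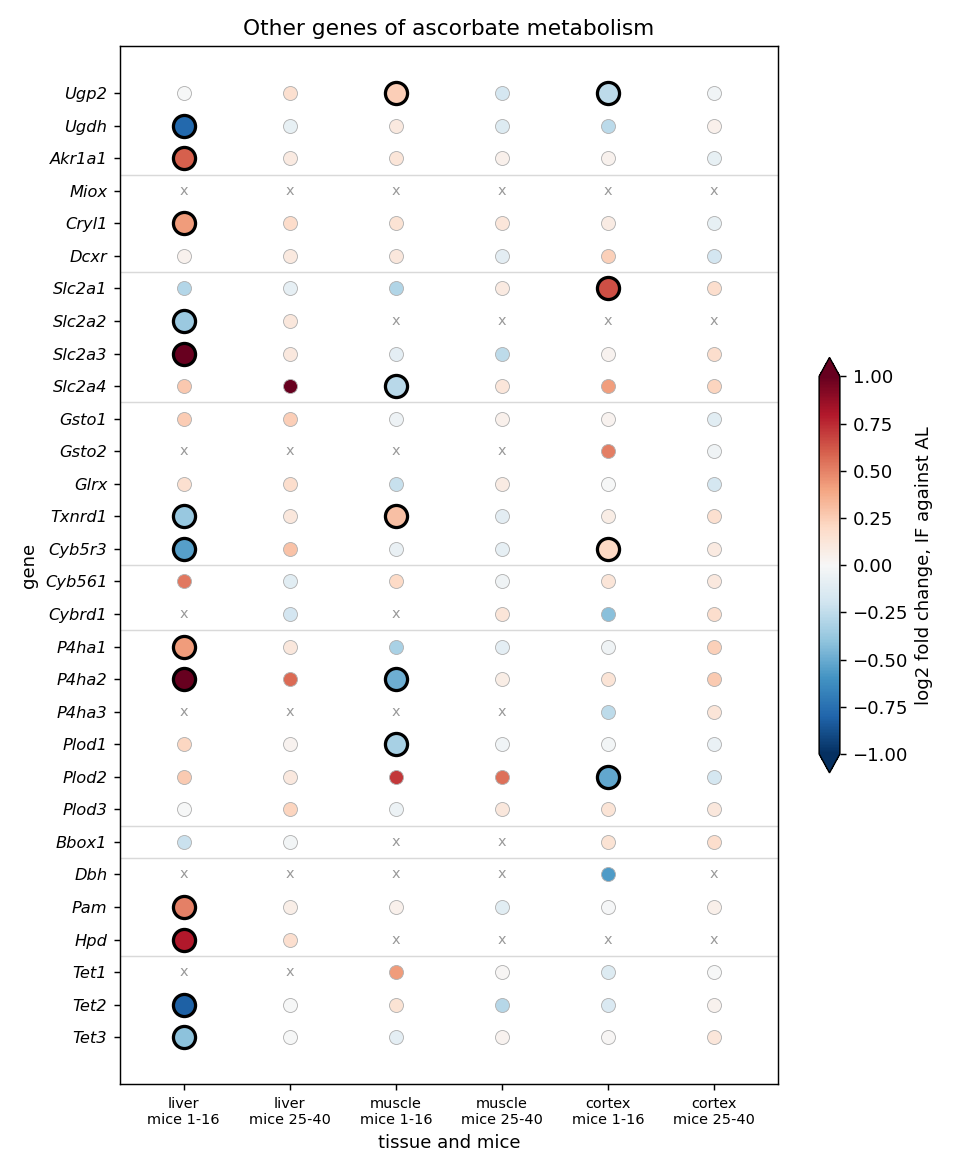
The log2 fold change of IF against AL (colour, capped at -1 and 1) of 30 other genes of ascorbate metabolism in the 6 comparisons of tissue and set of mice (male mice 1-16, female mice 25-40), with large ringed points for an adjusted p under 0.05 and x where a gene was not tested. Ringed points stand in the male columns alone, 13 in liver, 5 in muscle and 4 in cortex.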

How the data were processed

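The deposited values are raw read counts per gene, which the authors made from poly-A libraries with Hisat2, on GRCm39, and featureCounts. CPM used the raw count and the library total, and CPM per kb the gene length in the authors' table. Each comparison of IF with AL was fitted with edgeR 4.0.16 in R 4.3.3 and tables were made in Python 3.11.15. The filter was filterByExpr (minimum count 10, minimum total 15), scaling was TMM, and the test was the robust quasi-likelihood F test, two-sided, adjusted by Benjamini-Hochberg over all genes tested, threshold 0.05. SE is the log2 fold change over the root of F. The members and lists were chosen with earlier results of these data known. Pathway genes given with values were the 5 with the smallest adjusted p among those past the threshold in each comparison, and those past it in the interaction. Alternatives were RLE scaling, library totals, other filters, DESeq2 1.42.0 without the filter on low counts, a replicate block, libraries left out and the left-out cortex library added. The test was also tried on simulated counts, whose outcome is not given and from which nothing was read here. Tmlhe, 1 of the 31 listed genes, was not analysed here. Floors of 3 counts cover counting error only.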

Additional observations from a re-analysis of the deposited data

Results flagged for a closer look

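A sample far from the rest of its group was found in 4 of 95 groups examined, where chance gives about 1 in 20. In AL female muscle, mouse 29 had 12.2 CPM of Slc23a2, and the other 7 mice 6.86 to 9.25 CPM. Gulo was at 0.526 CPM in the muscle of IF female mouse 35, and at 0 to 0.157 CPM in the other 7. Slc2a4 was at 453 CPM in the muscle of IF male mouse 11, and at 546 to 575 CPM in the other 7. In AL female liver, mouse 26 had 38.1 CPM of Tet2, and the other 7 mice 14.4 to 23.2 CPM. Without this library, an alternative chosen after the data were seen, the interaction of Tet2 was 1.02 and 7 list genes passed in place of 6.

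The IF response differed between female and male mice by the interaction test for 11 pathway genes, given as female minus male log2 fold change. These were Ugdh (0.74), Txnrd1 (0.53), Cyb5r3 (0.88), Tet2 (0.85), Tet3 (0.44) and Hpd (-0.61) in liver, P4ha2 (0.58), Slc2a4 (0.42) and Plod1 (0.31) in muscle, and Slc2a1 (-0.46) and Ugp2 (0.23) in cortex. They were 6 of 27 list genes tested in liver, 3 of 24 in muscle and 2 of 27 in cortex. Of all genes tested, 23.7% passed in liver, 14.2% in muscle and 2.03% in cortex. Tet3, Slc2a1 and Ugp2 no longer passed without AL mouse 2 and IF mouse 10, nor did Slc2a1 and Ugp2 with the left-out cortex library added, or Plod1 without IF mouse 11, the last 2 alternatives chosen after the data were seen. The left-out library labelled male held 213 CPM of Xist, against at most 0.612 CPM in the male libraries used.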

How the results depend on the processing

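In 85 refits under other settings, the 4 members' log2 fold changes moved by less than the spread between mice. So did their 48 group means under TMM. Leaving out 1 library can hardly move them by more, so the same in 199 such refits is no test. They gave -2.64 to -2.49 for male liver Slc23a1. Of the log2 fold changes of pathway genes, 423 of 444 leaving out 1 library and 206 of 222 under other settings stayed on their side of the threshold, and the other 21 and 16 no longer passed. Values that passed in either fit kept their sign, while values near 0 that did not pass, such as those of Tet2 and Tet3 in female liver, changed sign in some refits.

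Counts of calls moved more, and the cause was not tested. With DESeq2 the list count in male muscle was 8 in place of 5. DESeq2 was run without the filter on low counts, on 32898 genes in male muscle against 15025 with edgeR. Its counts thus differ from those of edgeR in both the tool and the genes tested. DESeq2 called 4 of all genes in female liver, 82 in female muscle, 2187 in male cortex and 61 in female cortex, against 0, 1, 1332 and 2 with edgeR. At an unadjusted p under 0.05, DESeq2 gave 3 list genes in female liver, 11 in male muscle, 8 in male cortex and 6 in female cortex, and of all genes 1307 in female liver, 5926 in male muscle, 2002 in female muscle, 5085 in male cortex and 2510 in female cortex.

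With no filter, 2 list genes passed in male cortex, and 5 of all genes in female muscle. With library totals alone, 0 of all genes passed in female cortex, and in male muscle 2553 were higher and 1073 lower, against 1726 and 1737 with TMM. Without AL mouse 2 and IF mouse 10, 498 of all genes passed in male cortex, and 0 list genes in the cortex interaction. With the left-out library added, 294 of all genes and 1 list gene passed in male cortex, and 0 list genes in the interaction, this last chosen after seeing the data, as were the interactions without AL mouse 26 in liver and without IF mouse 11 in muscle.

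A block on the replicate number, which is all the samples of a block share, gave 382 of all genes and 2 list genes in male cortex, and 0 of all genes in female cortex. In male muscle it gave 4 list genes in place of 5, with 1 higher in IF in place of 2. The median correlation of AL and IF libraries with the same number lay between -0.10 and 0.07 over the 6 comparisons. It was over 0.1 in 4 of 8 pairs in female muscle, with a highest value of 0.46, and in 1 or 2 pairs in each of the other comparisons.

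Leaving out 1 library in turn, the list count ranged from 2 to 5 in male cortex and from 0 to 1 in female cortex, where the 1 was without AL mouse 26. The list count of male cortex was moved most by AL mice 3 and 5. The count of all genes ranged from 1 to 3 in female muscle (moved by AL mouse 27 and IF mouse 33), from 638 to 2060 in male cortex (AL mice 2, 3 and 5 and IF mice 11, 12, 13 and 14) and from 0 to 254 in female cortex, the 254 again without AL mouse 26. Leaving out any other library than AL mouse 26 or AL mouse 32 gave 0 or 1 there in place of 2.

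At 26097314 or more counts per library, depth limits mainly the members near the floor, Rgn, Gulo and Slc23a1 in muscle and cortex. Sex, numbering and any other difference between the sets of mice cannot be told apart, and RNA levels do not give ascorbate or protein.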
